A study of Mus musculus with 6 samples.

Results

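The genes described here are 10 inflammatory cytokine and chemokine genes of the mouse, Il6, Il1b, Tnf, Csf1, Cxcl1, Cxcl2, Cxcl10, Cx3cl1, Ccl2 and Ccl5, and the data are the accessible chromatin at their loci in the kidney. Their sites are the intervals that overlap the stretch from 3 kb upstream of each gene start to the gene end in the GENCODE M39 annotation of GRCm39, read along the strand of the gene. That gave 41 of the 279569 distinct intervals of the deposited list, and 177 of its 749750 summits. Chromatin accessibility was measured by ATAC-seq, in which a transposase inserts sequencing adapters wherever DNA is not covered by nucleosomes, on nuclei from the kidney cortex. The labels hold 3 WT and 3 Acly cKO libraries, all with the treatment given as Control, and the study asked how ATP-citrate lyase (ACLY), which makes acetyl-CoA from citrate, bears on chromatin in the kidney. The Acly cKO mice carry loxP-flanked (floxed) Acly alleles and the Ksp-Cre transgene, whose Cdh16 promoter is active in tubule epithelium, so that other kidney cells keep ACLY, and the WT mice are littermates with the floxed alleles and no Cre. The methods state that young adult mice were assigned to the groups of the kidney disease models, and give no age for these libraries in particular.

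A single peak call was made on pooled libraries, and it has no column for any kidney. WT and Acly cKO kidneys were therefore not compared, no value carries a replicate error, and no test was run. The labels put WT in batches 1 and 2 and Acly cKO in batches 4 and 5, so the batch and the genotype cannot be told apart in any case. Whether wild-type libraries from an earlier deposit entered the pool is not shown by the files. What can be compared is 1 site or gene with another within the pool.

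Cytokines and chemokines are small secreted or membrane-bound proteins by which injured epithelium and immune cells call and instruct leukocytes. Many of their genes are switched on within hours by signal-dependent transcription factors. The best known of these factors are NF-κB, AP-1, C/EBPβ and the interferon-activated STAT and IRF factors. In the kidney, tubule cells are themselves a source of several of these proteins after injury, while resident and infiltrating macrophages are another. The promoters of many immediate inflammatory genes lack CpG islands, the CpG-dense sequence that keeps most housekeeping promoters open in every tissue.

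Sequences were read from GRCm39, 5′ to 3′ on the strand of the gene. The following are shown because they hold the highest and the lowest value at a gene start (Cxcl10 and Il1b) or a match to the NF-κB core GGNNTTTCC on either strand. Each is the run of 250 bases that ends just before the gene start, with the matches to that core and to TATAAA in capitals.
Cxcl10 (chr5:92496749-92496998, minus strand): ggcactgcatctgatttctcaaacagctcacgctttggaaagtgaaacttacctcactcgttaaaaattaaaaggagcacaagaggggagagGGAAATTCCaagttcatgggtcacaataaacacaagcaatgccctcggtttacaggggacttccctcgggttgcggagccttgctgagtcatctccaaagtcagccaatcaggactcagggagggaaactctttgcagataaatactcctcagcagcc
Cxcl1 (chr5:91038844-91039093, plus strand): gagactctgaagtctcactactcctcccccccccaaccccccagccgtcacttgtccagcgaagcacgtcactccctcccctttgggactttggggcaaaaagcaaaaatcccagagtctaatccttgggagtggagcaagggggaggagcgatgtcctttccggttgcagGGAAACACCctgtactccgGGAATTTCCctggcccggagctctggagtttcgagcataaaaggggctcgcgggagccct
Cxcl2 (chr5:91051480-91051729, plus strand): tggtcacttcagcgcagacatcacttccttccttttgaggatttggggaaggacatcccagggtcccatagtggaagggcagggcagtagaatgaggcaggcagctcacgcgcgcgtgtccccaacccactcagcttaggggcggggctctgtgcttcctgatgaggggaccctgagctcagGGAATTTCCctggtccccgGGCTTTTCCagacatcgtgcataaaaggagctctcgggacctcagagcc
Csf1 (chr3:107667807-107668056, minus strand): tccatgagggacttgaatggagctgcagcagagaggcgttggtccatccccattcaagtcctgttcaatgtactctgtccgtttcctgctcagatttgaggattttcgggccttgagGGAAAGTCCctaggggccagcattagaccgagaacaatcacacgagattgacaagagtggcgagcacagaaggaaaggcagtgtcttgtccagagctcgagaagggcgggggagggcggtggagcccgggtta
Il6 (chr5:30217862-30218111, plus strand): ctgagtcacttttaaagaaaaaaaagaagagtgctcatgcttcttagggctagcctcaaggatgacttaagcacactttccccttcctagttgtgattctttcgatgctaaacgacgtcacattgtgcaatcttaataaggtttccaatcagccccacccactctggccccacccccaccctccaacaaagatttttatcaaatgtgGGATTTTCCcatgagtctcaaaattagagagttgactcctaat
Ccl2 (chr11:81926147-81926396, plus strand): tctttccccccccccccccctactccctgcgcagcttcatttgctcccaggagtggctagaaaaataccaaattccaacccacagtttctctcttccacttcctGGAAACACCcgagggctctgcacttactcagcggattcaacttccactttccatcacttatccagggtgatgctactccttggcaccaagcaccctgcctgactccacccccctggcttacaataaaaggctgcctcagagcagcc
Il1b (chr2:129213060-129213309, minus strand): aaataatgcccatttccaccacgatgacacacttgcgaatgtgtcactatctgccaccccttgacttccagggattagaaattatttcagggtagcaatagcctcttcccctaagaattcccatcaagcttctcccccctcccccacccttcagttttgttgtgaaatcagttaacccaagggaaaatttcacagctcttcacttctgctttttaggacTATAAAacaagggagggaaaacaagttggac

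Most of these genes had an accessible start. An interval reached within 1 kb of the gene start in 9 of the 10, against 74.3% of 21757 protein-coding genes, and the exception was Il1b. In all 9 the fold enrichment at the highest summit was at least 5, a level reached by 64.3% of protein-coding genes. Counting Il1b as 0, the median over the 10 genes was 17.8, beside 17.5 over all protein-coding genes, and 5 of the 10 lay above that overall median. Fold enrichment is taken as the pileup of reads at a summit plus 1, over the background that the authors' peak caller used plus 1. The values show that background to be 1 constant of 14.3 reads. The start value of a gene is that of the highest summit in any interval that reaches its window. In bulk nuclei, a site open in few cells and a site weakly open in many cannot be told apart.

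Ordered by the start value, the chemokine gene Cxcl10 came first at 39.2-fold (95% counting interval 36.1 to 42.5). It was followed by Cx3cl1 at 33.6 (30.7 to 36.6), Csf1 at 32.9 (30.1 to 35.9) and Cxcl1 at 31.0 (28.3 to 34.0). Neighbours in the order among these 4 genes overlapped in their counting intervals. Below a gap came Ccl5 at 20.2 (17.98 to 22.5), and below another Cxcl2 at 15.4 (13.5 to 17.5), whose interval overlapped that of Il6 at 11.9 (10.2 to 13.7). Ccl2 at 7.59 (6.28 to 9.10) and Tnf at 5.63 (4.51 to 6.95) closed the list of called starts, and their intervals overlapped each other. The counting intervals are exact Poisson intervals of the reads at the summit and cover counting error only, not the spread between kidneys. Among all protein-coding genes Cxcl10 stood at the percentile 73.2, Ccl5 at 52.7 and Tnf at 36.8.

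**Figure D1:**
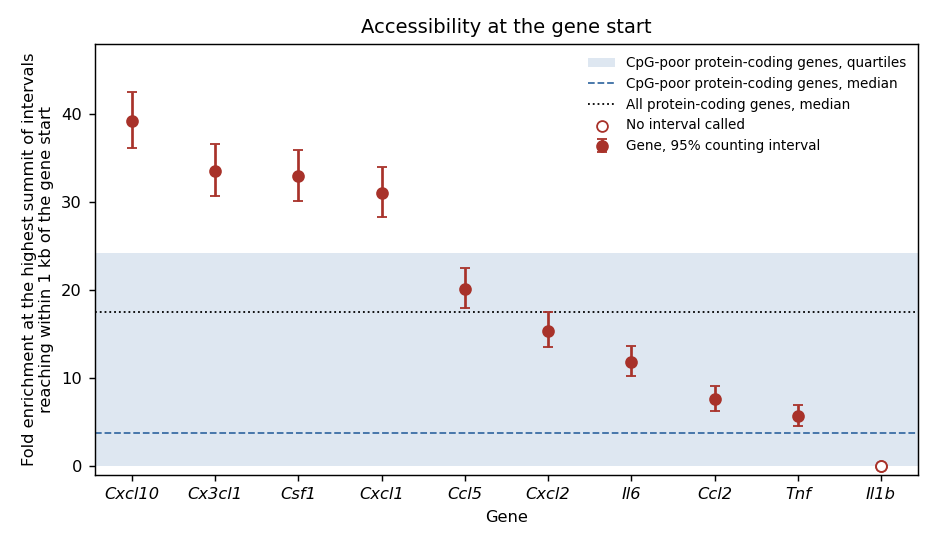
Fold enrichment at the start of each of the 10 genes (vertical axis, no unit), with bars for the 95% counting interval, the quartile band and median of CpG-poor protein-coding genes and the median of all protein-coding genes. The 4 genes from Cxcl10 to Cxcl1 lie above the band, whose upper edge is 24.2, the 5 from Ccl5 to Tnf lie inside it and above its median of 3.80, and Il1b, the open circle, has no interval.

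All 10 promoters were poor in CpG. In the 250 bases before and 50 after the gene start, the observed over expected CpG ratio ran from 0.190 at Ccl2 to 0.568 at Csf1, under the limit of 0.6 that separated CpG-poor from CpG-rich promoters here. Genes of that class had the lower shares and the lower median in this list. Among 13801 CpG-poor protein-coding genes 60.9% had an interval at the start and 47.0% reached 5-fold, with a median of 3.80, while among 7956 CpG-rich genes the shares were 97.6% and 94.2% and the median was 38.9. The 10 genes thus had a median start value, 17.8, that lay between the medians of these classes, and of the 10 only Cxcl10 lay above the median of the CpG-rich class, which its counting interval spanned. Because the 10 genes were not drawn at random, these figures describe them and test nothing.

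**Figure D2:**
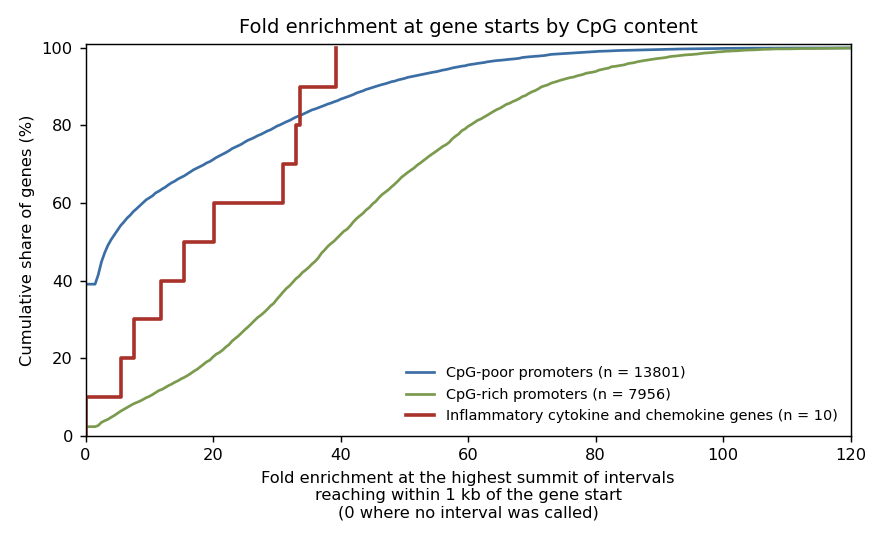
Cumulative share of genes (vertical axis, %) by fold enrichment at the gene start (horizontal axis) for the 10 genes, CpG-poor and CpG-rich protein-coding genes. The curve of the 10 genes starts at 10.0% with Il1b and runs between the curves of both classes up to Csf1 at 32.9. It ends at Cxcl10 at 39.2, left of the upper end of either class.

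The summit that set the start value lay close to the annotated start in all 9 genes, between 94 bp upstream at Cxcl10 and 266 bp downstream at Ccl5. In Cxcl10, Cxcl1, Tnf and Ccl2 it lay upstream of the start, by 94, 82, 57 and 54 bp. In Cxcl2, Cx3cl1 and Csf1 it lay in exon 1, 20, 160 and 247 bp downstream, and in Il6 it lay in intron 1, 172 bp downstream. Other transcripts of 3 of these genes have annotated starts close to the summit. For Csf1 the summit was at chr3:107667559, with starts at 107667537, 107667557 and 107667558. For Il6 it was at chr5:30218284, with a start at 30218319, and for Cx3cl1 at chr8:95498797, with starts from 95498829 to 95498853. Ccl5, whose outermost and canonical starts differ, is described with the CC chemokines below.

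The NF-κB core occurred in the 300-base promoter (250 before and 50 after the start) of 6 of the 10 genes, namely Il6, Csf1, Cxcl1, Cxcl2, Cxcl10 and Ccl2, while 5.73% of all 21757 protein-coding promoters held it, 5.87% of the CpG-poor and 5.48% of the CpG-rich. Positions are counted back from the gene start, whose first base is +1, to the first base of the match. Cxcl1 and Cxcl2, which encode neutrophil attractants and arose by duplication, each held a pair of matches, at -79 and -60 and at -68 and -49, in both cases 19 bases apart. The other genes held 1 match each, Il6 at -43, Csf1 at -133, Ccl2 at -146 and Cxcl10 at -158. In the promoters of Il1b, Tnf, Ccl5 and Cx3cl1 these letters were not found. The count depended on the letters and the window. The narrower core GGGANTTTC was found in Csf1, Il6, Cxcl1 and Cxcl2, 4 of 10 against 1.22% of promoters, and 500 bases before to 100 after the start gave 7 of 10, with Il1b added, against 10.9%.

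Each other motif occurred in at most 3 of the 10 promoters. TATAAA stood in Il1b at -31 and in Tnf at -29, against 13.7% of all promoters and 17.6% of the CpG-poor. The gene with no interval thus carries an exact TATA box at the usual distance. The AP-1 site TGANTCA occurred in Il6 at -249 and Cxcl10 at -74 (7.51% of all promoters, 9.76% of the CpG-poor). The C/EBP half-site pair TTGCNNAA occurred in Il6 at -128 (11.4% and 13.4%), and the interferon-response letters GAAANNGAA in Cxcl10 at -213 (8.99% and 10.0%). The GC box GGGCGG occurred in Tnf, Cxcl2 and Csf1 (35.8% of all promoters, 18.3% of the CpG-poor). The cyclic AMP element TGACGTCA occurred in none of the 10 (2.10% and 1.02%). Both strands were searched for all motifs, and a match is a run of letters, not a shown binding site.

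Across the whole loci, 18 of the 41 intervals reached 5-fold (43.9%, against 24.5% of all intervals), 24 had a q under 1e-05 and 21 were under 3-fold. Their median width was 687 bp and their median fold enrichment 2.95, beside 434 bp and 2.55 over the whole list. An annotated start of the gene itself lay in 11 of the intervals, only a start of another gene in 4, and no start in 26, of which 6 reached 5-fold. In 6 of the 41 the highest summit lay outside the stretch searched, which the interval overlapped only with an edge. The intervals covered a median of 60.2% of the stretch, beside 16.7% over all protein-coding genes, from 0 at Il1b and 9.53% at Il6 to 94.8% at Cx3cl1. This share depends on the length of the stretch, which ran from 4881 bp at Cxcl1 to 22443 bp at Csf1. It was not set beside genes of like length, so the difference cannot be read as wider accessibility.

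**Figure D3:**
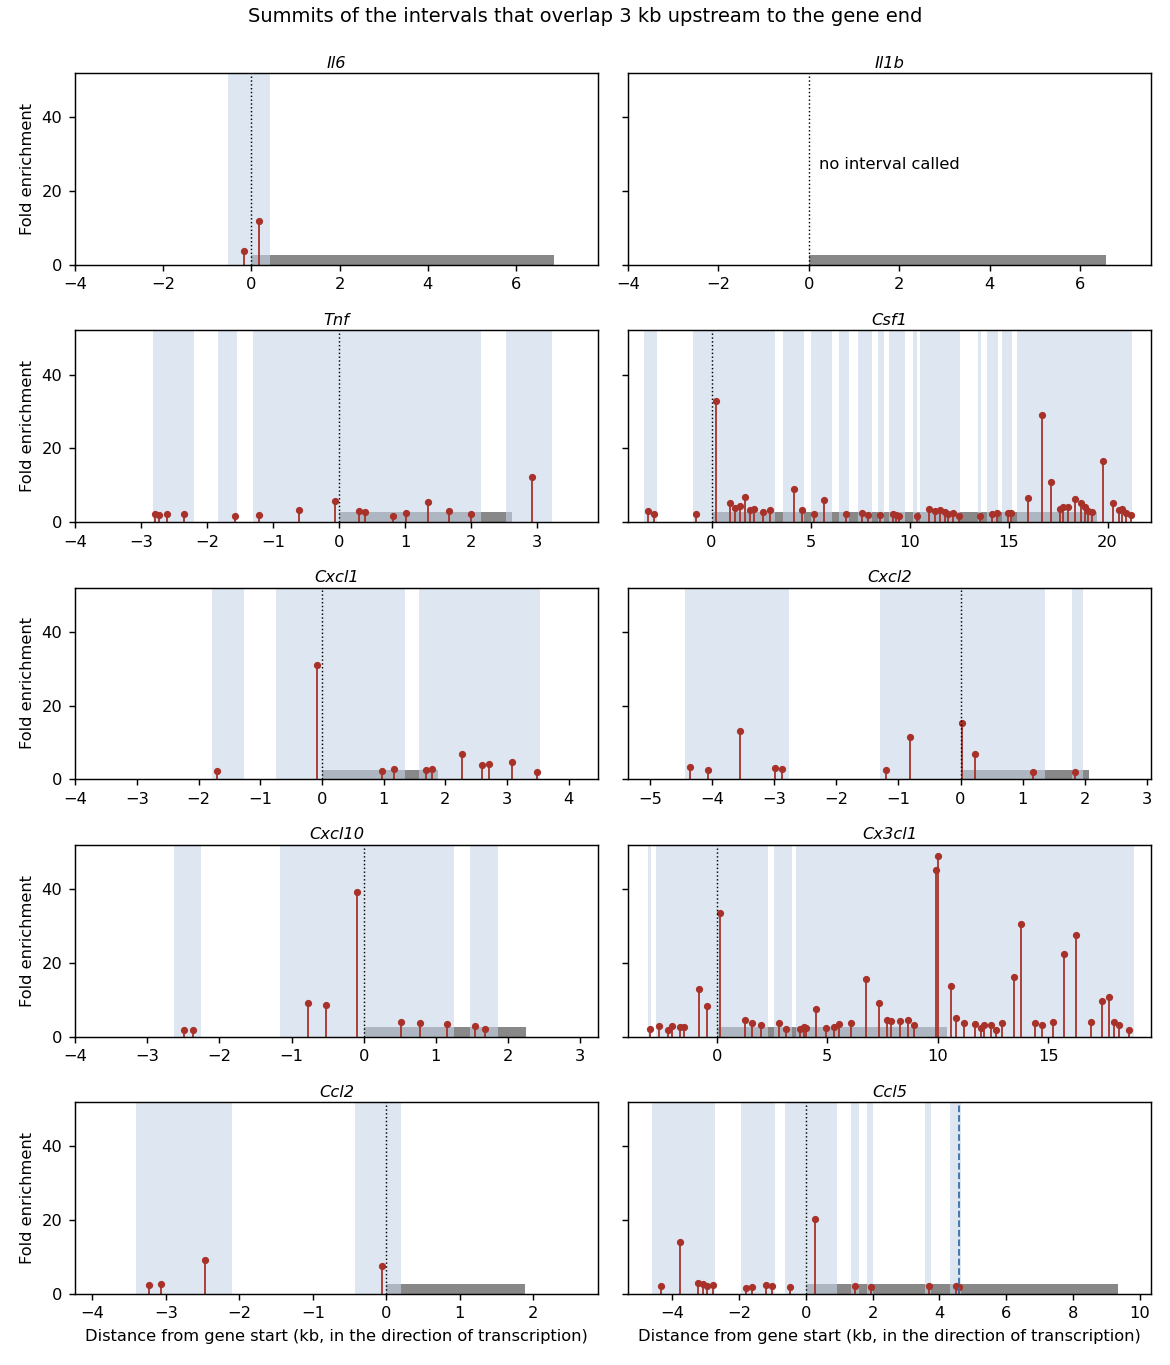
Called summits at the 10 loci (vertical lines, height is fold enrichment) by distance from the gene start in kb along the direction of transcription, with intervals shaded in blue and the gene as a grey bar, and the canonical start of Ccl5 as a dashed line. Cx3cl1 and Csf1 hold strong summits far inside the gene, Tnf and Ccl2 hold a site away from the start as high as or above it, Il6 has 1 short interval and Il1b none.

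Of the cytokines proper, Il6 (ENSMUSG00000025746.12, chr5:30218112-30224979, plus strand) encodes interleukin-6, which signals through gp130 and STAT3 and drives the acute-phase response. It had 1 interval, chr5:30217587-30218526, 940 bp wide with 2 summits, and its nearest called neighbours lay 65529 bp to the left and 27574 bp to the right of the gene. Its value of 11.9-fold rested on 180 reads at the summit and a -log10 q of 126. The NF-κB match at -43 and the summit at +172 lay inside that single interval.

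Il1b (ENSMUSG00000027398.15, chr2:129206490-129213059, minus strand) encodes interleukin-1β, a precursor that the inflammasome must cleave before it acts. No interval overlapped its stretch, as at 16.8% of protein-coding genes. The nearest intervals lay 9728 bp beyond its start, at 1.77-fold, and 25969 bp beyond its end, at 3.47-fold. Within 50 kb there were 7 intervals, the strongest at 7.27-fold 37491 bp upstream. The lowest fold enrichment in the whole list is 1.70, so the start of Il1b, and any other gene listed without an interval, was below the level this call could register and need not be closed in every cell.

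Tnf (ENSMUSG00000024401.15, chr17:35418357-35420983, minus strand) encodes tumour necrosis factor, whose trimer binds the receptors Tnfr1 and Tnfr2. The interval over its start, chr17:35418838-35422281, was 3444 bp wide with 10 summits, yet the highest reached only 5.63-fold. A separate interval at the other end of the gene, chr17:35417761-35418446, reached 12.2-fold (10.6 to 14.1) at a summit 2929 bp from the start and beyond the gene end, and its counting interval lay apart from that of the start. No annotated start lay in it. The 300 bases around its summit held an NF-κB core and an AP-1 site, letters found in 6.21% and 15.2% of all such windows. Among windows at intervals of at least 5-fold the shares were 7.67% and 19.3%. The remaining intervals upstream of Tnf were at 1.70-fold and, over the start of the microRNA gene Mir6974, at 2.23-fold.

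Csf1 (ENSMUSG00000014599.12, chr3:107648364-107667806, minus strand) encodes macrophage colony-stimulating factor, on which kidney macrophages depend for survival. It had the most intervals of the 10 genes, 14, beside a median of 5 in the 8313 protein-coding genes whose length was within a factor of 2 of its own. The start interval, chr3:107664613-107668730, reached 32.9-fold at a summit in exon 1. A further interval at chr3:107646579-107652372 reached 29.1-fold (26.5 to 32.0) in intron 8, 16685 bp from the start, so that its counting interval overlapped that of the start. Sites in intron 2 and intron 3 reached 8.90-fold and 5.89-fold, and the other 10 intervals lay between 1.70-fold and 3.40-fold. An interval in intron 4 at 2.23-fold held the starts of 2 shorter transcripts.

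The CXC chemokines Cxcl1 and Cxcl2 lie side by side on chromosome 5 and both attract neutrophils through Cxcr2. Cxcl1 (ENSMUSG00000029380.13, chr5:91039094-91040974, plus strand) reached 31.0-fold and Cxcl2 (ENSMUSG00000058427.11, chr5:91051730-91053797, plus strand) 15.4-fold, with counting intervals that lay apart. In Cxcl1 the summit fell 3 and 22 bases before the pair of NF-κB matches, counted to their first bases, in an interval of 2098 bp. Past its end lay an interval of 6.81-fold over the start of the predicted gene Gm55977. In Cxcl2 the highest summit lay 20 bp into exon 1, and an interval whose summit lay 3554 bp upstream, with no annotated start, reached 13.2-fold (11.5 to 15.2), a counting interval that overlapped that of the start. The start interval of Cxcl2 also held the start of the predicted gene Gm73232.

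Cxcl10 (ENSMUSG00000034855.14, chr5:92494497-92496748, minus strand) encodes an interferon-inducible attractant of T cells that acts through Cxcr3. Its start interval, chr5:92495496-92497904, was 2409 bp wide with 6 summits, and the highest rested on 598 reads and a -log10 q of 717. The 300 bases around that summit held the NF-κB core, the AP-1 site and the interferon-response letters together, and the first of these stands in capitals in the printed sequence. The remaining intervals, at the gene end and 2368 bp upstream, were at 2.88-fold and 1.83-fold.

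Cx3cl1 (ENSMUSG00000031778.15, chr8:95498637-95509055, plus strand) encodes fractalkine, a membrane-anchored chemokine that binds Cx3cr1 on monocytes and macrophages. It was the most widely covered locus, with 94.8% of the stretch inside 4 intervals, and the start interval reached 33.6-fold. The strongest site of all 10 loci lay here, at 49.0-fold (45.5 to 52.6) in exon 3, 10028 bp from the start. It belonged to an interval of 15312 bp, chr8:95502206-95517517, with 39 summits, which runs past the gene end and also holds starts of the long non-coding RNA gene 1700121C10Rik. The value can therefore not be given to Cx3cl1 alone.

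Of the CC chemokines, Ccl2 (ENSMUSG00000035385.6, chr11:81926397-81928279, plus strand) encodes the main attractant of Ccr2-bearing monocytes. Its start interval, chr11:81925974-81926593, was 620 bp wide, held 1 summit and also covered the start of the predicted gene Gm31522. A site whose summit lay 2461 bp upstream of the start reached 9.30-fold (7.84 to 10.95), a counting interval that overlapped that of the start at 7.59. The 300 bases centred on that summit are shown because they hold 2 NF-κB cores, in capitals, on either side of an AP-1 site. Of windows at intervals of at least 5-fold, 7.67% held the core and 19.3% the AP-1 site. Apart from the Tnf site, the other intervals of at least 5-fold without a start of their own gene held no core around the summit. These were, at the loci described, Cx3cl1 at 49.0, Csf1 at 29.1, 8.90 and 5.89, Ccl5 at 13.9, Cxcl2 at 13.2 and Cxcl1 at 6.81.
Ccl2 upstream site (chr11:81923786-81924085, plus strand): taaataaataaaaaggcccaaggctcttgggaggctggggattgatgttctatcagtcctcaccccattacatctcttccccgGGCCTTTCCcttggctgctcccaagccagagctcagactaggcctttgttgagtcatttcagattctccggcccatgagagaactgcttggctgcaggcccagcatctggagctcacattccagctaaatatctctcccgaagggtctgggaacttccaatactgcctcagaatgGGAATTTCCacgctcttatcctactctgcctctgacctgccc

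Ccl5 (ENSMUSG00000035042.4, chr11:83416602-83425942, minus strand) encodes RANTES, which attracts T cells, monocytes and eosinophils through receptors that include Ccr1 and Ccr3. Its 20.2-fold start belongs to the outermost annotated start, used by 1 of its 4 transcripts and shared within the interval with the start of the long non-coding RNA gene Gm73716. At the canonical start, 4597 bp inside the gene, the value was 2.23-fold (1.55 to 3.10) in an interval of 345 bp that also held the start of the predicted gene Gm73713. Taking the canonical start, Ccl5 would be the lowest of the called genes, 8 of the 10 genes would reach 5-fold and the median would be 13.6. The canonical promoter, chosen for printing after its value was seen, holds an NF-κB core at -89 and TATAAA at -31, in capitals, which the outermost promoter lacks.
Ccl5 canonical promoter (chr11:83421346-83421595, minus strand): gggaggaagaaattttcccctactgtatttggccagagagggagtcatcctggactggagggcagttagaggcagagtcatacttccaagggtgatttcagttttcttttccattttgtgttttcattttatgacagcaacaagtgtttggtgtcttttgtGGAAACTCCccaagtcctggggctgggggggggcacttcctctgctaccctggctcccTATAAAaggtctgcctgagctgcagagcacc
The 300 bases around the 20.2-fold summit held 2 NF-κB cores and 1 match to the interferon-response letters. Of windows at intervals of at least 5-fold, 7.67% held the former and 8.17% the latter. Another interval, with its summit 3758 bp upstream of the outermost start and the start of the predicted gene Gm72320 inside, reached 13.9-fold, and the other 5 intervals of the locus, that over the canonical start included, lay between 1.90-fold and 2.42-fold.

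Several of the 10 genes sit in clusters of related genes, and start values differed widely within them. These neighbours come from a list of 57 other cytokine and chemokine genes and were picked for their position after their values had been seen. In the cluster of Cxcl1 and Cxcl2, Cxcl3 and Cxcl5, further neutrophil attractants, reached 12.8-fold and 22.5-fold, the latter 928 bp upstream of its start, the platelet chemokine gene Ppbp was at 2.75-fold, and Pf4 and Cxcl15 had no interval at the start. Beside Cxcl10, its interferon-inducible relative Cxcl9 had no interval at the start and its relative Cxcl11 was at 5.11-fold. Beside Ccl2, Ccl7 was at 1.96-fold, and Ccl11, Ccl12, Ccl8 and Ccl1 had no interval at the start. For Ccl1 this is the outermost start of a long annotated span (chr11:82067483-82196516, minus strand) with 4 intervals, and values at its other starts are not given. Near Ccl5, the macrophage inflammatory protein gene Ccl3 was at 1.96-fold and Ccl4 had none. Beside Tnf, Lta was at 2.36-fold and Ltb at 17.5-fold, though the summit of the latter lay 1429 bp downstream and the highest within 1 kb of its start was 3.73. Il1a, next to Il1b, had no interval at its start either.

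**Figure D4:**
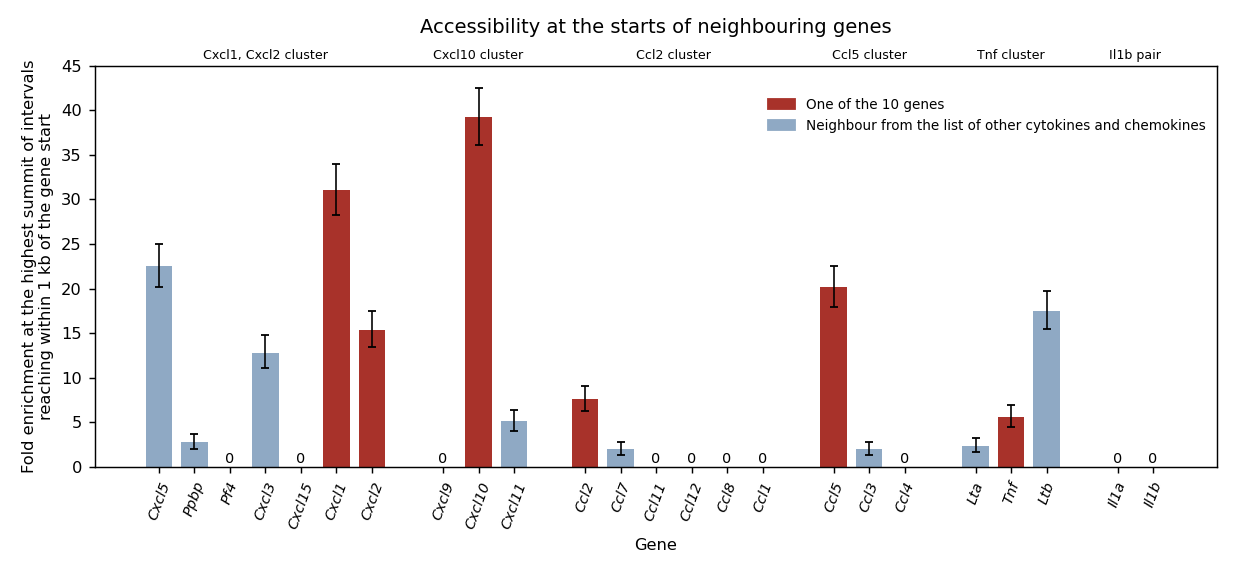
Fold enrichment at the gene start (vertical axis) for those of the 10 genes that lie in clusters, in red, and their listed neighbours, in blue, with 95% counting intervals and 0 where no interval was called. Cxcl10 at 39.2 stands beside Cxcl9 at 0, and Ccl2 at 7.59 beside 4 genes at 0, while Cxcl5 and Ltb rise above Cxcl2 and Tnf. The summit of Ltb lies 1429 bp downstream, and its highest within 1 kb of the start, 3.73, is under Tnf at 5.63. Among the genes at 0, Ccl1 is taken at the outermost start of a long annotated span.

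Over the whole list of 57 other cytokine and chemokine genes, 35 had an interval at the start (61.4%), 26 reached 5-fold (45.6%), 14 had no interval at all and the median start value was 2.75. The 27 chemokines among them had a median of 1.96 and the 30 cytokines one of 5.47. The list held 54 CpG-poor genes, with a median of 2.36, and 3 CpG-rich ones. Its 5 highest genes were Ccl25, a chemokine of the gut and thymus, at 82.8-fold, Il7, a lymphocyte survival factor, at 60.0, Tgfb1, the main fibrosis-promoting cytokine, at 53.2, Il15, which maintains natural killer cells, at 46.0, and Mif at 42.5. For Tgfb1 the summit lay 6136 bp upstream, and the highest within 1 kb of its start was 22.9. For Ccl25 the value belongs to the outermost start of a long annotated span (chr8:4374661-4540760, plus strand) with 25 intervals. Values at its other starts are not given, nor whether that interval holds the start of another gene. At canonical transcript starts 37 of the 57 genes had an interval. Ccl25, Tgfb1 and Mif were the CpG-rich genes. The genes of type 2 and T-cell cytokines Il4, Il5, Il13, Il17a and Ifng had no interval at the start. They were picked from the genes without one, which also include Il1a, Il10, Cxcl9 and Ccl4. Of the CpG-poor genes of the list 59.3% had an interval at the start, beside 60.9% of CpG-poor protein-coding genes.

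Of 17 receptor genes for these ligands, 13 had an interval at the start (76.5%) and 8 reached 5-fold (47.1%), with a median of 3.34. Among the cytokine receptors, the shared signalling chains Il6st (gp130) and Il1rap stood at 63.1-fold (59.2 to 67.2) and 49.95, and the ligand-binding chains Tnfrsf1a at 32.9, Il6ra at 25.5, Tnfrsf1b at 22.8, Csf1r at 20.3 and Il1r1 at 9.30. For Tnfrsf1a the summit lay 1108 bp inside and the highest within 1 kb of its start was 7.99. The decoy receptor Il1r2 was at 2.03. Among the chemokine receptors Ccr1 was at 9.62, Cxcr3 at 3.34, Cxcr2 at 2.55 and Cxcr1 at 1.83, the scavenger receptor Ackr2 was at 2.95, and Ccr2, Ccr3, Cx3cr1 and Ackr1 had no interval at the start. Il6 had a lower start value than Il6ra and Il6st, with counting intervals apart, and so did Tnf beside Tnfrsf1b. Tnf was also lower than Tnfrsf1a, but the value of Tnfrsf1a within 1 kb, 7.99, was close to its own. Il1b, with no interval and hence no counting interval, was listed below Il1r1, Il1rap and Il1r2. Csf1, Cx3cl1, Cxcl10, Cxcl1, Cxcl2 and Ccl2 had higher start values than the receptors listed for them, and so did Ccl5 at its outermost start, though not at its canonical start, where its 2.23 was under the value of Ccr1.

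**Figure D5:**
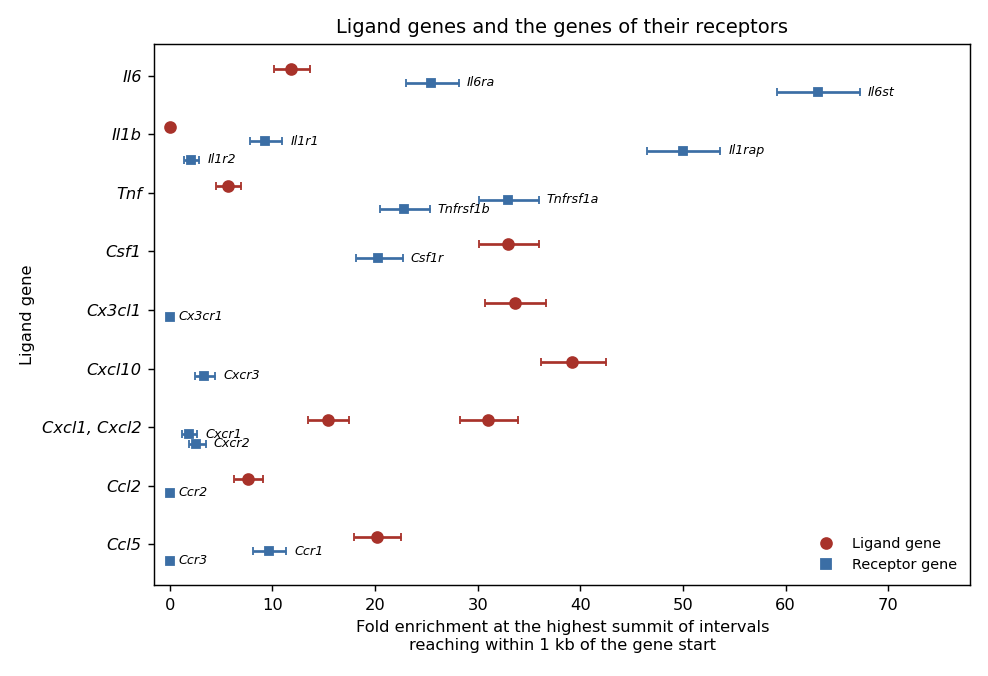
Fold enrichment at the gene start (horizontal axis) for ligand genes, red circles, and the genes of their receptors, blue squares, with 95% counting intervals, 1 row per ligand or ligand pair. Il6st at 63.1 and Il1rap at 49.95 lie far right of Il6 at 11.9 and Il1b at 0, and Cx3cl1 at 33.6 lies far right of Cx3cr1 at 0.

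The label kidney was checked against marker genes by the same start value. Proximal tubule genes ranged from 1.96-fold at Hnf4a to 33.1 at Lrp2, thick limb and distal tubule genes from 8.38 at Slc12a3, or 4.39 within 1 kb of its start, to 20.8 at Umod, collecting duct genes from 3.54 to 4.65, podocyte genes from 2.88 to 9.76, endothelial genes from 2.49 to 8.64 and stromal genes from 2.62 to 10.9. Among 5 genes of other organs, Ins2 and Myh6 had no interval at the start, while Gfap at 8.05, Alb at 2.95 and Neurod1 at 2.49 did, values within the range of the podocyte and endothelial genes. The start is the outermost annotated one. For Ins2 (chr7:142232393-142297118, minus strand) and Hnf4a (chr2:163348728-163414830, plus strand) the annotated span runs far from it. Values at their other starts are not given, so these 2 genes say little about the tissue. Of 6 myeloid genes 5 had an interval at the start, Cd68 at 31.2 with its summit 3567 bp downstream of the start and 11.2 within 1 kb of its start, Csf1r at 20.3, Spi1 at 4.39, Adgre1 at 2.49 and Lyz2 at 1.96, and Itgam had none. Of 4 lymphocyte and pan-leukocyte genes Cd79a was at 2.291, Ptprc at 1.90, and Cd3e and Ncr1 had none. How much of the signal at the 10 genes came from leukocytes in the tissue was not tested.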

How the data were processed

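Nuclei of 3 WT and 3 Acly cKO kidneys were labelled for ATAC-seq. By their methods and processing notes, the authors aligned fastp-trimmed read pairs to mm39 (Bowtie2 2.3.4.3), kept unique, deduplicated alignments, called peaks with summits (MACS3 3.0.0) and used bedtools 2.29.1 to drop the blacklist and any sequence outside the standard chromosomes. The deposited list gives each summit's fold enrichment, a linear ratio to background, and its −log10 q, both computed by the authors. The deposited integer score and summit offset, and the −log10 q of the deposited list before filtering, came from the same caller. That earlier list held 874 further summits, 0 of them within 50 kb of the genes described.

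Rows were grouped into distinct intervals, each taking the values of its highest summit by −log10 q. All 727147 summits under 20-fold were whole multiples of 0.0655 within a tolerance of 0.05 of a step, so reads at a summit were recovered from fold enrichment, and exact Poisson intervals at a confidence level of 95% were put back on that scale. The depth of single libraries is unknown. Each −log10 q belonged to 1 fold value, so both give the same order. Genes came from GENCODE M39, with the outermost annotated start as the gene start. Promoter sequence was read from GRCm39, the build of the files. Motifs were searched as the letters given, on both strands, and overlapping matches were counted per promoter once.

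The genes, lists, motifs and limits were chosen with earlier results of these data known. The genes named are all 10 genes, their receptors, the 5 highest of the other cytokine list, and neighbours and markers named for context. Of the receptor and marker lists, 1 gene each is not reported here and is left out of the counts. Scripts were tested on simulated data. Python 3.11.15, numpy 2.4.6, pandas 2.3.3, scipy 1.17.1 and matplotlib 3.10.9 were used.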

Additional observations from a re-analysis of the deposited data

How the results depend on the processing

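No paired analysis was possible because the pooled peak call gives no value per library, which also means that no replicate could be left out. The 41 intervals at the 10 loci became 24 at a q under 1e-05, 18 at a fold enrichment of at least 5, 177 when summits were counted and 81 when the stretch was widened by 10 kb on either side. These sets are smaller or larger by construction. The median start value, 17.8, became 13.6 at canonical transcript starts, where Ccl5 is at 2.23. The number of receptor genes with an interval at the start, 13, became 8 at a fold enrichment of at least 5. The share of protein-coding genes with an interval at the start, 74.3%, became 72.7% within 500 bp, 76.7% within 2 kb, 66.6% where a summit had to lie inside the window, 75.8% at canonical starts, 73.4% and 70.9% with a q under 0.01 or under 1e-05 and 64.3% at 5-fold. An interval at the start was found in 9 of the 10 genes in every setting tried. The NF-κB core was found in 4 to 7 of the 10 promoters, and with the broader consensus Ccl5 took the place of Ccl2. Canonical starts for the motif and both further settings for CpG content, which left 10 of 10 promoters CpG-poor, were chosen after seeing the data. Weak intervals, those near the lowest value of 1.70-fold, rest on few reads over a background of 14.3, and their presence in any single kidney is unknown.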
